A study of Homo sapiens with 42 samples.

Results

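OCI-AML3 is an established human acute myeloid leukaemia cell line whose genotype the labels give as NPM1c+, the cytoplasmic mutant of nucleophosmin. The comparison described here is between OCI-AML3 cells given the menin inhibitor VTP-50469 and the MEK inhibitor selumetinib together, labelled day 3, and OCI-AML3 cells given selumetinib alone. It asks what menin inhibition added to the transcriptome of cells in which MEK was already inhibited. It takes every gene of the deposited count table in 6 of the 42 libraries, 3 of the combination and 3 of selumetinib, and each drug was at 100 nM wherever it was given. As references, 3 OCI-AML3 libraries of VTP-50469 alone and 3 of the DMSO vehicle, all labelled day 3, gave the effect of the menin inhibitor without selumetinib, and the same combination and selumetinib groups in NOMO1, a KMT2A-rearranged leukaemia line, gave the same comparison in a second line. Nothing in the labels says whether the 3 replicates of a group came from separate cultures, so the p-values measure the spread between these libraries, which may be technical.

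The time of selumetinib is uncertain. All 3 selumetinib libraries are described as day 1, whereas the titles give day 1 for replicate 1 and day 3 for replicates 2 and 3, and no label says how long the combination cells had been in selumetinib. The addition of the menin inhibitor and a longer exposure to selumetinib therefore cannot be told apart in any value of this comparison. The selumetinib libraries of NOMO1 carry the same conflicting days, so the same holds for the NOMO1 comparison and for line differences. Counts of genes and of gene lists in the OCI-AML3 comparison are given with all libraries and again without selumetinib replicate 1.

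Menin, the product of MEN1, is a scaffold that holds the KMT2A histone methyltransferase at a set of promoters, among them those of MEIS1 and the HOXA genes, which keep leukaemia cells immature. Inhibitors that displace menin from KMT2A are known to lower such genes in KMT2A-rearranged and NPM1-mutant leukaemia and to let the cells take on features of mature myeloid cells. MEK1 and MEK2 pass the signal of RAS and RAF on to ERK, which drives growth genes such as MYC and CCND1 and the feedback inhibitors of its own pathway, among them the DUSP and Sprouty families. OCI-AML3 is known to carry an activating NRAS mutation besides mutant NPM1.

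The 6 libraries held 17006206 to 24262960 counts, and 18197 to 21743 genes had at least 1 count. Of the myeloid blast markers, PTPRC, CD33, ANPEP, SPI1, CEBPA, LYZ and CSF3R were above 5 counts per 1000000 counts (CPM) on average, whereas KIT was at 0 in all 6 libraries, CD34 was at most 0.451 CPM and MPO at most 2.77 CPM. Replicate 1 of selumetinib, the library titled day 1, stood nearer to DMSO than its partners on both of the leading principal components, and replicate 2 of VTP-50469 stood apart from its own partners. Transcripts of the mitochondrial genome made up 4.03% ± 0.414 (SD, n = 3) of counts in selumetinib and 6.16% ± 0.168 (SD, n = 3) in the combination, against 2.53% ± 0.128 (SD, n = 3) in DMSO. MEN1 itself, which encodes the drug's target protein, was at 67.6, 69.5 and 78.6 CPM in the combination and 86.5, 86.6 and 89.2 CPM in selumetinib (log2 fold change -0.28 ± 0.07, SE, edgeR adjusted p = 0.00296). KMT2A (log2 fold change 0.16 ± 0.14), MAP2K1 (0.09 ± 0.09) and MAP2K2 (-0.12 ± 0.07), the genes of menin's partner and of MEK1 and MEK2, did not pass the test, and MAP2K2 passed it without combination replicate 2 (edgeR adjusted p = 0.0384). Both drugs act on proteins, so these levels do not check the labels.

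**Figure D1:**
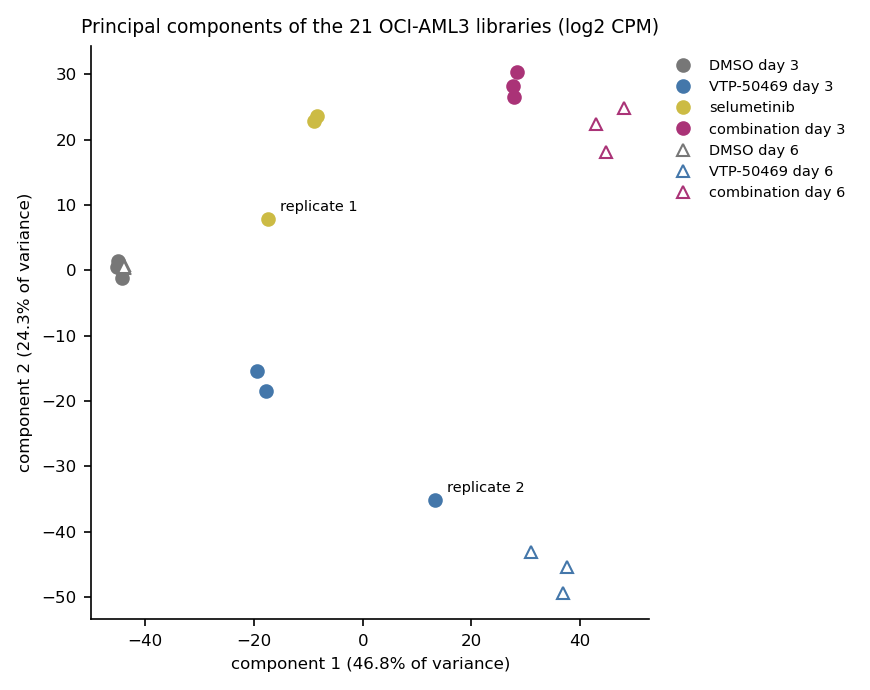
Each point is 1 of the 21 OCI-AML3 libraries, placed by the first (x axis, 46.8% of variance) and second (y axis, 24.3% of variance) principal components of log2 CPM. The combination day 3 libraries lie to the right of the selumetinib libraries, selumetinib replicate 1 lies between its partners and DMSO, and VTP-50469 day 3 replicate 2 lies towards the VTP-50469 day 6 libraries.

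Of 16384 genes tested with edgeR's quasi-likelihood test at a Benjamini-Hochberg adjusted p below 0.05, 1833 were called higher and 2623 lower in the combination than in selumetinib, which is 11.2% and 16.0% of the genes tested, or 27.2% in either direction. Of these, 426 were higher and 502 lower by more than 2-fold. For 6514 genes (39.8%) the replicates of the 2 groups did not overlap. Without selumetinib replicate 1, 1230 genes were called higher and 2127 lower, and 1208 and 2086 of these were also called with all 6 libraries. The median log2 fold change of all genes tested was -0.01, and with library totals in place of scaling factors 2384 genes were called higher and 2136 lower, so the split between the directions depends on the scaling.

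The 10 largest rises by fold among genes above 5 CPM began with SNORD3A, a small nucleolar RNA, at 20.4, 21.5 and 16.2 CPM in the combination and 0.158, 0.52 and 0.697 CPM in selumetinib. Next came SPTLC3, a subunit of the enzyme that starts sphingolipid synthesis (29.4-fold), GJA1, the gap junction protein connexin 43 (27.5-fold), LHFPL1 (22.5-fold), CDR2L (19.6-fold), the interferon-stimulated genes IFIT1 (19.1-fold) and IFIT2 (12.2-fold), SAMD11 (13.9-fold), DNASE2, a lysosomal DNase (13.6-fold), and the kinesin KIF13A (12.4-fold). The 10 largest falls were ANKRD22 (23.6-fold lower), the glycosyltransferase B3GNT7 (18.6-fold lower), PDPN, which encodes podoplanin (15.8-fold lower), TGFBI, a secreted matrix protein of monocytes and macrophages (15.2-fold lower), TERT, the catalytic subunit of telomerase (11.7-fold lower), the amino acid transporter SLC16A10 (11.6-fold lower), the collagen COL8A2 (10.7-fold lower), STC2 (8.71-fold lower), the ETS factor ETV4 (8.17-fold lower) and HSD11B1, which regenerates active cortisol (7.51-fold lower). For 10 of these 20 genes, leaving out 1 library moved the fold by over 1.5 times. ANKRD22 was at 0.724, 0 and 0 CPM in the combination and 7.23, 5.72 and 4.55 CPM in selumetinib, so that without combination replicate 1 its group had no count and its fold no measured size. On the log2 scale PDPN was at -5.26 without that library, and SLC16A10 (-4.65) and ETV4 (-3.92) moved without combination replicate 3. STC2 (-2.47) and ETV4 (-2.18) were smaller without selumetinib replicate 1. SPTLC3 (5.84) and SAMD11 (5.62) were larger without selumetinib replicate 2, as were LHFPL1 (5.26), IFIT1 (4.87) and KIF13A (5.06) without replicate 3. The 10 genes were still called in these fits. TERT was at 0.983, 0.845 and 1.44 CPM in the combination, at 20.8, 8.78 and 8.98 CPM in selumetinib and at 31, 35.4 and 27.1 CPM in DMSO. Replicate 1 of selumetinib was the highest of its group for TERT, and its partners were still above every combination library.

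By CPM rather than fold, the largest rises were MT-RNR2 and MT-RNR1, the mitochondrial ribosomal RNAs, TXNIP, ETS2, PLD3 and CFD, and the largest falls EEF1A1, ACTB, PABPC1, RPL4, RPS2 and EEF2. TXNIP, which restrains glucose uptake and binds thioredoxin, was at 1883, 1972 and 1967 CPM in the combination and 703, 686 and 726 CPM in selumetinib, with 922, 842 and 953 CPM in DMSO (2.75-fold, log2 fold change 1.46 ± 0.07, SE, edgeR adjusted p = 3e-14). Every combination library was above every library of the other 3 groups. The falls included the translation elongation factors EEF2 (1.46-fold lower) and EEF1A1 (1.19-fold lower) and PABPC1, the poly(A)-binding protein (1.36-fold lower). EEF1A1 missed the test without combination replicate 1 (edgeR adjusted p = 0.0982) and without selumetinib replicate 3 (0.0568). The libraries were made from polyadenylated RNA, so the levels of the ribosomal RNAs and of SNORD3A depend on what that selection captured.

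**Figure D2:**
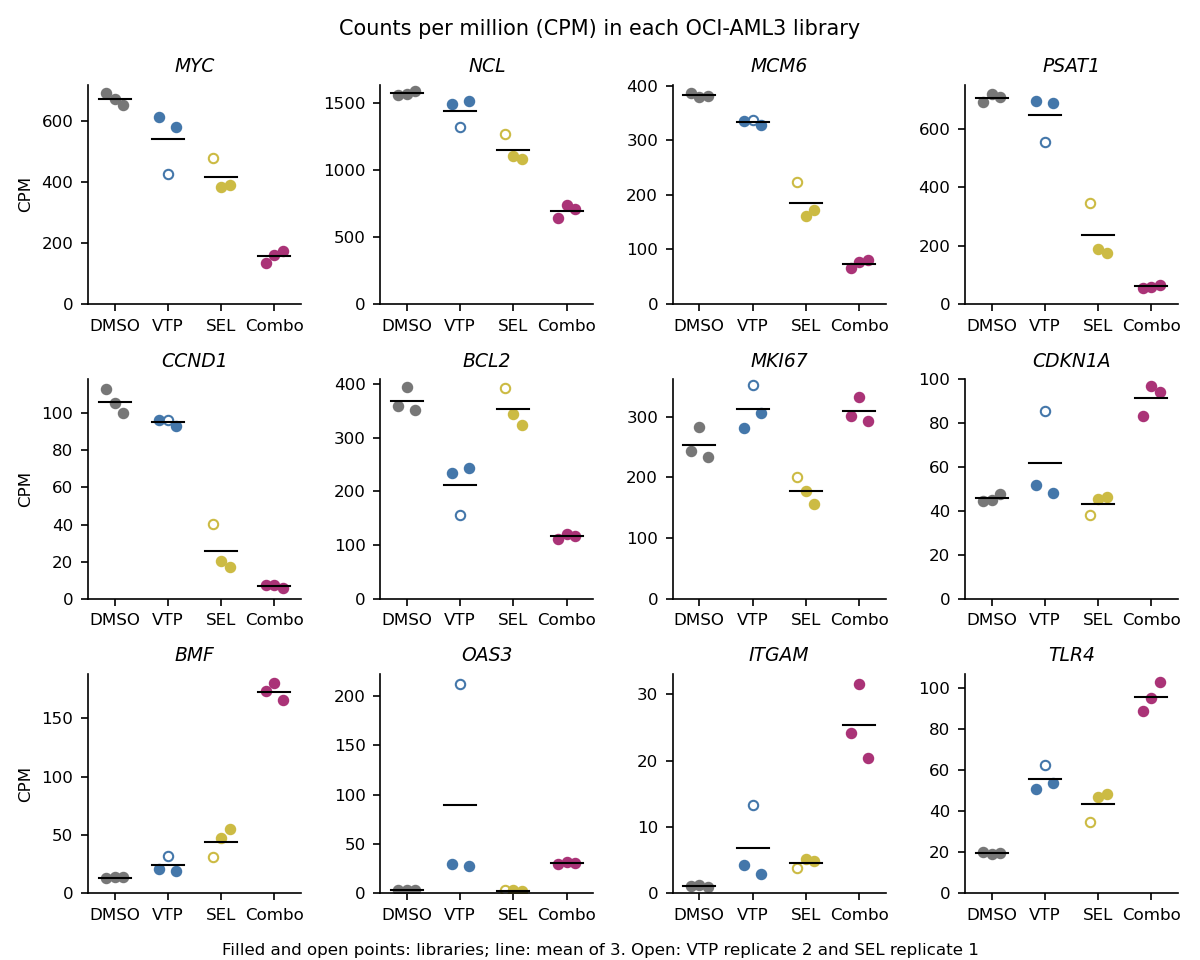
CPM (y axis, linear, from 0) of 12 genes in each OCI-AML3 library labelled DMSO day 3, VTP-50469 day 3 (VTP), selumetinib (SEL) and combination day 3 (Combo), with a line at the mean of 3. The open points are VTP replicate 2 and SEL replicate 1. MYC, NCL, MCM6, PSAT1 and CCND1 step down from selumetinib to the combination, whereas BMF, ITGAM and TLR4 step up.

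Genes that copy DNA fell. Of 26 DNA replication genes tested, 21 were called lower and 0 higher, against 16.0% and 11.2% of all genes. Their median log2 fold change was -0.80 against -0.01 for all genes. On leaving out selumetinib replicate 1 the count was 19 lower, with a median of -0.61. MCM6, a subunit of the helicase that unwinds DNA at replication forks, was at 65.5, 76.8 and 79.9 CPM in the combination and 224, 161 and 171 CPM in selumetinib, and at 386, 379.8 and 381 CPM in DMSO. The 2 groups did not overlap, and selumetinib replicate 1 was the nearest of its group to DMSO (2.51-fold lower, log2 fold change -1.33 ± 0.10, SE, edgeR adjusted p = 1.59e-10). The other helicase genes MCM2 to MCM7 fell by 0.64 (MCM5) to 0.98 (MCM2) on the log2 scale. E2F1, the transcription factor that switches replication genes on, was at 6.41, 5.28 and 7.6 CPM in the combination and 19.6, 13.9 and 13.7 CPM in selumetinib (2.44-fold lower, edgeR adjusted p = 3e-07). The licensing factors CDT1 (2.04-fold lower) and CDC6 (1.91-fold lower), MCM10 (2.42-fold lower), cyclin E1 (CCNE1, 1.9-fold lower) and the sliding clamp PCNA (1.49-fold lower) fell as well. RRM2, TK1, POLA1 and E2F2 did not pass the test, at log2 fold changes of -0.17, -0.17, -0.20 and 0.20.

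The promoters of these genes are shown because an E2F site is the usual mark of a replication gene. In the 250 bases before the annotated start, the letters TTTGGCGC or TTTCCCGC on either strand were found for 11 of the 22 tested replication genes with a RefSeq promoter (50.0%), against 536 of 27305 promoters in all (1.96%). Among the 10707 promoters of genes tested, 3.1% held these letters. Of the replication genes, 9 of the 11 with the letters and 9 of the 11 without them were called lower. The stretches below are from RefSeq (GRCh38.p14), written 5′ to 3′ on the strand of the gene, with the searched letters or their reverse complement in capitals. They lie at chr2:135876516-135876543 (minus strand, MCM6), chr6:52284899-52284926 (minus strand, MCM3) and chr20:5126664-5126691 (minus strand, PCNA), all upstream of the transcript.
MCM6: attggtcaggTTTGGCGCgaaatctcca
MCM3: ggatggtacgTTTCCCGCcaccgcgggg
PCNA: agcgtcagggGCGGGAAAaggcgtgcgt
A match describes the letters in this window and shows no binding.

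Genes of mitosis moved the other way. Of 24 mitosis genes tested, 19 were called higher and none lower, against 11.2% and 16.0% of all genes. The median was 0.34, and without selumetinib replicate 1 there were 17 higher. The count was 11 without combination replicate 2 and 12 without selumetinib replicate 3. MKI67, the proliferation marker Ki-67, was at 300.5, 333 and 292 CPM in the combination and 199.8, 177 and 156 CPM in selumetinib, with no overlap (1.74-fold, edgeR adjusted p = 6.28e-07). Its level in DMSO, 243, 283 and 234 CPM, was between them. The centromere proteins CENPE (1.69-fold) and CENPF (1.51-fold), the kinesin KIF23 (1.41-fold), the anaphase activator CDC20 (1.39-fold) and topoisomerase TOP2A (1.36-fold) rose too. AURKA, AURKB, CCNA2, BUB1B and TTK did not pass the test, at log2 fold changes between 0.02 (AURKB) and 0.13 (CCNA2). The letters of the E2F site were in 1 of 18 promoters of this list (5.56%), against 3.1% of the 10707 promoters of genes tested.

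Genes that hold the cell cycle back or drive it changed in both directions. Of 14 cyclins, kinases and inhibitors tested, 5 rose and 4 fell (4 and 4 without selumetinib replicate 1), against 11.2% and 16.0% of all genes. CCND1, cyclin D1, was at 7.24, 7.61 and 5.61 CPM in the combination, 40.1, 20.2 and 17.2 CPM in selumetinib and 113, 105 and 100.1 CPM in DMSO (3.77-fold lower than in selumetinib, edgeR adjusted p = 9.82e-06). The lowest selumetinib library was still above the highest combination library. CDK4, the kinase that cyclin D1 activates, fell 1.77-fold and CDKN2A, which encodes inhibitors of CDK4 and of MDM2, fell 2.66-fold and RBL1, a relative of RB1, 1.4-fold, whereas the inhibitor genes CDKN1A (2.11-fold) and CDKN2D (2.45-fold) and the cyclin gene CCND3 (1.3-fold) rose. The others that rose were CDKN1B and RB1, and without combination replicate 2 neither passed the test (edgeR adjusted p = 0.163 and 0.0742; log2 fold change of RB1 0.28 in place of 0.44). CDKN1B missed it without combination replicate 3 and selumetinib replicates 1 and 2 as well (edgeR adjusted p = 0.0662, 0.182 and 0.0724). CDKN1A, which encodes p21, was at 83, 97.1 and 94 CPM in the combination and 38.1, 45.2 and 46.2 CPM in selumetinib.

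Ribosome biogenesis genes fell almost as a block. MYC, which drives ribosome production and is itself a target of ERK signalling, was at 136, 160.2 and 175 CPM in the combination, 479.8, 383 and 392 CPM in selumetinib and 694, 674 and 656 CPM in DMSO. All 3 combination libraries were below all selumetinib libraries, and selumetinib replicate 1 was the highest of its group (2.66-fold lower, log2 fold change -1.41 ± 0.11, SE, edgeR adjusted p = 4.53e-10). Of 25 genes in the list that MYC heads, 24 were called lower, against 16.0% of all genes, with a median log2 fold change of -0.85. The same number were called lower without selumetinib replicate 1 (median -0.77). PPAN, the remaining member, was at log2 fold change -0.65 ± 0.31 (SE, edgeR adjusted p = 0.134), and passed the test with no filter on low counts (0.0119) and in the fit of the 6 libraries alone (0.0235). NCL, nucleolin, was at 640.5, 739 and 706 CPM in the combination and 1272, 1106 and 1080 CPM in selumetinib (1.66-fold lower). The largest falls after MYC were BOP1 (2.24-fold lower) and RRP12 (2.21-fold lower), which mature pre-ribosomes, WDR43 (2.01-fold lower), and POLR1A, the catalytic subunit of RNA polymerase I (1.99-fold lower, edgeR adjusted p = 3e-10). NPM1, which is mutated in this line, fell 1.52-fold. Reads from the normal and the mutant allele are not separated in the counts. The MYC-binding E-box, CACGTG, was in 1 of 19 promoters of the list (5.26%) against 1772 of 27305 in all (6.49%). Among the 10707 promoters of genes tested, 8.86% held it.

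Genes of amino acid supply and the stress response that controls them fell. Of 23 tested, 18 were called lower and none higher (median -0.79), against 16.0% and 11.2% of all genes. Without selumetinib replicate 1, 14 were called lower (median -0.64). PSAT1, an enzyme of serine synthesis, was at 56.2, 58.2 and 66.2 CPM in the combination, 344, 187 and 175 CPM in selumetinib and 693, 718 and 709.5 CPM in DMSO. Selumetinib replicate 1 was again the nearest to DMSO, and its partners were still well above the combination (3.9-fold lower, edgeR adjusted p = 4.06e-06). SLC7A5, the leucine importer, was at 88.6, 101 and 94.9 CPM in the combination, 503, 281 and 269.8 CPM in selumetinib and 1712, 1689 and 1609 CPM in DMSO (3.7-fold lower). CHAC1, which degrades glutathione (3.25-fold lower), the arginine and lysine transporter SLC7A1 (2.34-fold lower), SHMT2, the mitochondrial serine hydroxymethyltransferase (1.92-fold lower), and ATF4, the transcription factor of this response (1.64-fold lower), fell with them. DDIT3, MTHFD2, ATF5 and CEBPB did not pass the test, and ASNS, asparagine synthetase, did not either (log2 fold change -0.79, and -1.13 without combination replicate 2), but passed it without that library or with no filter on low counts.

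Cholesterol synthesis and uptake showed smaller falls, with 13 of 23 genes called lower, none higher and a median of -0.35 (11 lower without selumetinib replicate 1). Over all genes, 16.0% were called lower and 11.2% higher. DHCR7, the last enzyme of the pathway, was at 19.1, 19.9 and 24.2 CPM in the combination and 41.9, 39.7 and 38.2 CPM in selumetinib (1.9-fold lower, edgeR adjusted p = 4.55e-08), SQLE fell 1.66-fold and SREBF2, the transcription factor of the pathway, 1.38-fold. Of 26 nuclear genes of oxidative phosphorylation 9 fell and none rose, beside the same shares of all genes, with a median of -0.19. These counts were the same when selumetinib replicate 1 was left out. CYC1 (1.39-fold lower) and ATP5F1B (1.22-fold lower) were among those that fell. Of 13 genes for proteins of the mitochondrial genome 1 was called higher, against 11.2% of all genes. The median was 0.38, and without selumetinib replicate 1 the count and the median were 0 and 0.29. With only the 6 compared libraries in the fit, 10 of the 13 were called higher. The share of mitochondrial transcripts moved with the groups, and its part in these values was not tested.

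Feedback inhibitors of the ERK pathway fell further in the combination than in selumetinib alone. Of 12 tested genes of the MEK activity signature, 8 were called lower and 1 higher (median -0.88), and 7 lower and 1 higher without selumetinib replicate 1. Over all genes, 16.0% were called lower and 11.2% higher. DUSP6, the phosphatase that switches ERK off, was at 0.828, 1.16 and 1.89 CPM in the combination, 6.87, 3.41 and 2.71 CPM in selumetinib and 9.55, 9.92 and 7.63 CPM in DMSO (3.3-fold lower than in selumetinib, edgeR adjusted p = 0.00125). The groups did not overlap, but the values are low. SPRY4 (8.12, 7.08 and 11.3 CPM in the combination and 29.4, 19.9 and 18.7 CPM in selumetinib) and SPRY2 (1.98-fold lower), which restrain receptor signalling upstream of RAS, DUSP4 (1.91-fold lower) and the ETS factors ETV4 and ETV5 (1.78-fold lower) fell. ETV5 missed the test without combination replicate 3 (edgeR adjusted p = 0.0527) and without selumetinib replicate 1 (0.0602). PHLDA1 was the member that rose, from 5.6, 6.93 and 8.32 CPM in selumetinib to 17.5, 23 and 20.4 CPM in the combination (2.9-fold). How far the falls follow the day of selumetinib was not tested; without replicate 1, log2 fold changes were -1.24 for DUSP6, -1.14 for SPRY4 and -1.46 for CCND1.

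The immediate early genes did not move as one group. Of 23 genes of this list, 7 rose and 5 fell (6 and 3 without selumetinib replicate 1), against 11.2% and 16.0% of all genes. FOS (1.9-fold), FOSL2 (1.7-fold), JUNB (1.33-fold), IER5 (1.45-fold), KLF2 (1.46-fold) and ZFP36 (1.38-fold) were among those that rose, and MYC, CXCL8 and LIF among those that fell. CXCL8, the neutrophil chemokine interleukin 8, was at 10.1, 8.61 and 9.73 CPM in the combination and 36.4, 25.6 and 25.9 CPM in selumetinib (3.09-fold lower). EGR1, the classic ERK response gene, was low in both groups, at 1.91, 4.22 and 1.94 CPM in the combination and 5.6, 3.64 and 2.54 CPM in selumetinib, and did not pass the test (log2 fold change -0.53 ± 0.62, SE).

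**Figure D3:**
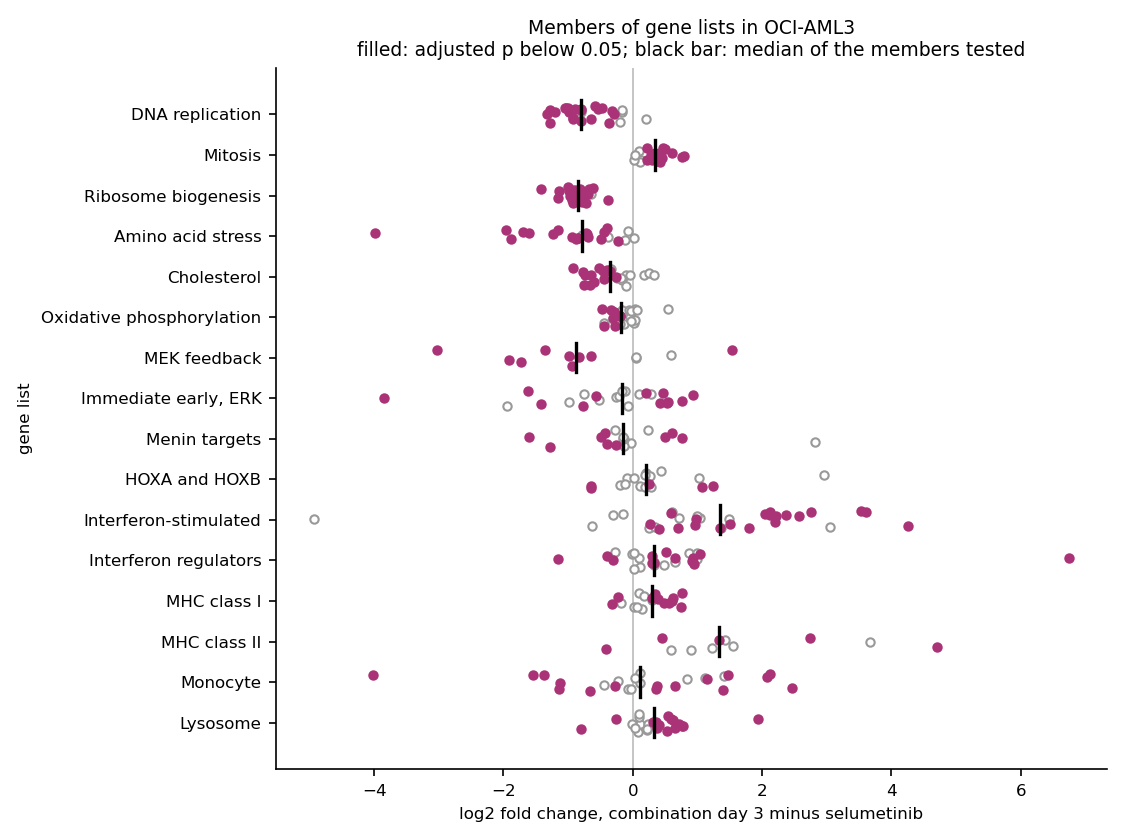
Log2 fold change (x axis) of combination day 3 minus selumetinib in OCI-AML3 for the tested members of 16 gene lists (y axis). Filled points had an adjusted p below 0.05, open points did not, and the black bar is the median of the tested members. The replication, ribosome biogenesis and amino acid stress lists lie mostly below 0 and the mitosis and interferon-stimulated lists mostly above it.

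Among BCL2 family genes, the survival gene BCL2 and the death gene BMF moved in opposite directions. BCL2 was at 112, 119.8 and 117 CPM in the combination and 392, 344 and 324 CPM in selumetinib, with 358, 395 and 351 CPM in DMSO (3.04-fold lower, log2 fold change -1.60 ± 0.14, SE, edgeR adjusted p = 5.14e-08). BMF, a BH3-only protein that neutralizes BCL2-like proteins, was at 173, 179.9 and 166 CPM in the combination, 30.7, 47.6 and 54.7 CPM in selumetinib and 12.8, 13.5 and 13.7 CPM in DMSO (3.89-fold, edgeR adjusted p = 8.98e-08). In both genes the 3 combination libraries were close together and apart from all others. Of the 14 family members tested, MCL1 also rose (1.15-fold), and BAX (1.27-fold lower; edgeR adjusted p = 0.0561 without selumetinib replicate 3), BID (1.21-fold lower) and PMAIP1, which encodes NOXA (1.33-fold lower), also fell. MCL1 missed the test without combination replicate 3 (edgeR adjusted p = 0.0677) and without selumetinib replicate 1 (0.0752), and PMAIP1 without combination replicate 2 (0.0546) and without selumetinib replicate 1 (0.24, log2 fold change -0.19 in place of -0.41). BCL2L11, which encodes BIM, and BCL2L1, which encodes BCL-XL, did not pass the test, at log2 fold changes of -0.02 ± 0.07 and 0.09 ± 0.15 (SE). Of the 14 members, 2 rose and 4 fell, against 11.2% and 16.0% of all genes. With selumetinib replicate 1 left out, 1 rose and 3 fell. BMF lies at chr15:40087890-40108892 and BCL2 at chr18:63123346-63320128 (GRCh38, GENCODE).

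Interferon-stimulated genes rose. Of 33 tested, 20 were called higher and none lower, against 11.2% and 16.0% of all genes, with a median log2 fold change of 1.36. With selumetinib replicate 1 left out, 11 were called higher and the median was 1.16. OAS3, a sensor of double-stranded RNA, was at 29.5, 32.1 and 31.1 CPM in the combination and 3.06, 3.23 and 1.93 CPM in selumetinib (11.5-fold, log2 fold change 3.52 ± 0.76, SE, edgeR adjusted p = 0.00249). The combination libraries were tightly grouped and about as high as VTP-50469 replicates 1 and 3, whereas VTP-50469 replicate 2 was far above its partners (29.6, 212 and 28 CPM in replicates 1, 2 and 3). LGALS3BP, a secreted glycoprotein, was at 36.7, 42.5 and 37.9 CPM in the combination and 9.56, 8.95 and 9.88 CPM in selumetinib (4.11-fold). The translation blocker IFIT1 was at 5.48, 6.76 and 7.84 CPM in the combination and at 0.106, 0.346 and 0.533 CPM in selumetinib. The ADP-ribosyltransferase PARP9 (4.33-fold) and its partner DTX3L (1.94-fold), the ubiquitin ligase HERC6 (2.84-fold), IFI6 (5.16-fold) and SAMD9L (3.47-fold) rose as well, and BST2, tetherin, rose 1.2-fold. Without selumetinib replicate 1, IFIT1 (edgeR adjusted p = 0.071) and IFI6 (0.052) missed the test with log2 fold changes of 3.85 and 2.22, and IFIT1 missed it without selumetinib replicate 2 (0.0501). MX1 (2.74, 1.06 and 2.53 CPM in the combination and 0.792, 0.924 and 1.31 CPM in selumetinib) and ISG15 (19.1, 13.6 and 16.2 CPM in the combination and 3.85, 7.45 and 7.63 CPM in selumetinib) were higher on average but did not pass the test (ISG15 passed it in DESeq2 and in the fit of the 6 libraries alone, adjusted p = 0.036 and 8.08e-05), and IFITM1 had no count in the combination and 0.528, 0 and 0.082 CPM in selumetinib. Many members are close in sequence to a neighbouring family member (the OAS and IFIT genes), and how reads that fit more than 1 of them were counted is not given in the sources used here.

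The stretches below show letters that match the site of interferon response factors, in promoters of IFI6 and IFIT1, members that rose. A match shows no binding, and both genes missed the test without selumetinib replicate 1, as given above. The letters GAAANNGAAA on either strand were in the 250 bases before the start of 17 of 27 tested members with a RefSeq promoter (63.0%), against 839 of 27305 promoters in all (3.07%). Among the 10707 promoters of genes tested, 2.5% held these letters. Of the 17 with the letters 9 rose, and of the 10 without them 7 rose. The stretches lie at chr1:27672266-27672295 (minus strand, IFI6) and chr10:89392497-89392539 (plus strand, IFIT1) of GRCh38.p14, per RefSeq, and are written on the strand of the gene with the searched letters or their reverse complement in capitals.
IFI6: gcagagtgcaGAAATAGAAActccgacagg
IFIT1: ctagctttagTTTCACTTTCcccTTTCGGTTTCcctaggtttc
IFIT1 holds the pattern at 2 places.

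Of 26 receptors, transducers and sensors of the interferon pathway, 10 rose and 3 fell, against 11.2% and 16.0% of all genes. IRF1, an activator of interferon genes, was at 86.5, 102 and 87.6 CPM in the combination and 45.3, 48.5 and 50 CPM in selumetinib (1.92-fold, edgeR adjusted p = 6.38e-09). TMEM173, which encodes STING, the adaptor for cytosolic DNA, was at 472, 473 and 485 CPM in the combination and 229.9, 248 and 267 CPM in selumetinib (1.92-fold, edgeR adjusted p = 4.15e-12). Neither overlapped between the groups. The RNA sensor EIF2AK2, which encodes PKR (2.04-fold), IRF2 (1.57-fold) and JAK1 (1.26-fold) rose. IRF7, at 32.8, 31.5 and 36.5 CPM in the combination and 15.5, 18.9 and 18.7 CPM in selumetinib (1.9-fold), missed the test without any 1 of the 6 libraries, with edgeR adjusted p from 0.0611 (without combination replicate 2) to 0.129 (without selumetinib replicate 1). IRF8, a lineage factor of monocytes and dendritic cells, fell from 1292, 1256 and 1349 CPM in selumetinib to 528, 586 and 635 CPM in the combination (2.23-fold lower). The DNA sensor CGAS (1.24-fold lower; edgeR adjusted p = 0.1 without combination replicate 1) and IFNGR2 (1.32-fold lower) also fell. Without selumetinib replicate 1, 7 of the list rose and 4 fell.

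Of 18 MHC class I antigen presentation genes, 9 rose and 2 fell, against 11.2% and 16.0% of all genes. Their median was 0.29, and 8 rose and 1 fell without selumetinib replicate 1. The risers included B2M, the light chain (1.54-fold), HLA-C (1.4-fold), the immunoproteasome subunit PSMB9 (1.68-fold) and the peptide-trimming enzyme ERAP2 (1.69-fold). HLA genes are near-identical and highly variable, so their counts are uncertain. Of 11 MHC class II genes tested 4 rose and 1 fell, beside the same shares of all genes. Their median was 1.33, and 3 rose and 1 fell without selumetinib replicate 1. However, HLA-DRA was at 2.43, 2.32 and 3.77 CPM in the combination and 0.37, 0.635 and 0.287 CPM in selumetinib, a low level in both groups. CD74, the invariant chain, was at 181, 202 and 204 CPM in the combination and 129.7, 149.9 and 148 CPM in selumetinib (1.38-fold), and CIITA, the master activator of the class, did not pass the test (log2 fold change 0.91 ± 0.38, SE).

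The menin-KMT2A target genes moved in both directions. Of 17 tested outside the HOX clusters, 3 rose and 6 fell, with a median of -0.15, against 11.2% and 16.0% of all genes, and the counts were the same without selumetinib replicate 1. MEIS1, the homeobox cofactor of HOXA9, was at 41.1, 49.3 and 40.4 CPM in the combination and 53.6, 59.5 and 59.8 CPM in selumetinib (1.32-fold lower, log2 fold change -0.40 ± 0.12, SE, edgeR adjusted p = 0.00908). PBX3, another cofactor, was at 20.5, 20.2 and 18.3 CPM in the combination and 23.9, 31.9 and 27.6 CPM in selumetinib (1.41-fold lower; edgeR adjusted p = 0.0667 without combination replicate 3 and 0.104 without selumetinib replicate 2). Neither overlapped between the groups. MEIS1 was at 42.8, 42.5 and 46.7 CPM in DMSO, within the range of the combination libraries. The largest falls of the list were BCL2, above, and IGF2BP2, an RNA-binding protein, at 80.5, 92.8 and 92.7 CPM in the combination and 206, 222 and 219 CPM in selumetinib (2.43-fold lower, edgeR adjusted p = 2.07e-09). MYB fell 1.35-fold and RUNX2 1.2-fold (edgeR adjusted p = 0.0969 for RUNX2 without combination replicate 3). MEF2C (1.52-fold), LMO2 (1.7-fold) and TCF4 (1.42-fold) rose. The receptor kinase FLT3 was at 222, 207 and 207 CPM in the combination and 168, 184 and 190.3 CPM in selumetinib and did not pass the test (log2 fold change 0.23 ± 0.11, SE, edgeR adjusted p = 0.137; 0.0422 with library totals and 0.0284 in the fit of the 6 libraries alone). CDK6 and JMJD1C did not pass it either.

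Of 18 HOXA and HOXB genes tested, 3 rose, among them HOXA5 (2.36-fold) and HOXA13 (1.19-fold), and 2 fell, among them HOXA11 (1.57-fold lower). These shares are near those of all genes (11.2% and 16.0%), and the counts were 2 and 1 without selumetinib replicate 1. HOXA9 was at 72.7, 74.5 and 70.1 CPM in the combination and 70, 68.5 and 62.3 CPM in selumetinib, and HOXA10 was at 132, 143 and 157 CPM in the combination and 124, 127 and 127 CPM in selumetinib. Neither passed the test, at log2 fold changes of 0.11 ± 0.10 and 0.19 ± 0.08 (SE), although HOXA10 passed it without combination replicate 1 (edgeR adjusted p = 0.044) and with library totals (0.0129). Transcripts of neighbouring HOXA genes overlap, and the libraries are unstranded, so reads of HOX genes and of their antisense partners cannot be told apart.

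Genes of mature myeloid cells were mixed. Of 26 monocyte and macrophage genes tested, 9 rose and 7 fell, against 11.2% and 16.0% of all genes, with a median of 0.11 (7 and 7 without selumetinib replicate 1). ITGAM, the integrin CD11b, was at 24.1, 31.6 and 20.4 CPM in the combination and 3.75, 5.14 and 4.88 CPM in selumetinib (5.51-fold, edgeR adjusted p = 4.22e-05). TLR4, the lipopolysaccharide receptor, was at 89, 95.4 and 103 CPM in the combination, 34.9, 46.9 and 48.3 CPM in selumetinib and 20.1, 19.3 and 19.8 CPM in DMSO (2.21-fold, edgeR adjusted p = 2.09e-09). Both separated the groups fully. The scavenger receptor CD163 (2.63-fold), the integrin ITGAX (2.78-fold) and cathepsin S, CTSS (1.57-fold), rose, whereas CSF1R, the receptor for the macrophage growth factor, was at 20.7, 21.6 and 17.1 CPM in the combination and 28, 63 and 62.9 CPM in selumetinib (2.59-fold lower). MS4A7 (2.9-fold lower), MS4A6A (2.17-fold lower), the Fc receptor FCGR1A (2.21-fold lower) and CYBB, the oxidase subunit (1.58-fold lower), also fell. CD14 was also called lower, but it was under 1 CPM in all 6 libraries, at 0.0517, 0 and 0 CPM in the combination and 0.37, 0.116 and 0.615 CPM in selumetinib. LYZ, lysozyme, did not pass the test (407, 400.4 and 422 CPM in the combination and 292, 459.9 and 449.9 CPM in selumetinib).

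Of 13 neutrophil and granule genes tested, 2 rose and 1 fell, with a median of 0.04 (2 and 2 of 14 tested without selumetinib replicate 1), against 27.2% called in either direction over all genes. S100A8 was at 37.1, 26.5 and 30.7 CPM in the combination and 3.43, 8.55 and 9.68 CPM in selumetinib (4.32-fold) and its partner S100A9 rose 3.59-fold. PRTN3, proteinase 3 of immature granules, fell from 561, 583 and 617 CPM in selumetinib to 121, 145 and 151 CPM in the combination (4.21-fold lower, edgeR adjusted p = 3.72e-08). Of 18 myeloid and progenitor transcription factors, 2 rose and 5 fell, against 11.2% and 16.0% of all genes. The share that rose was near that of all genes, and both counts were the same without selumetinib replicate 1. The repressor BCL6 (2.23-fold) was among the risers, and MYB, IKZF1 (1.47-fold lower), HHEX (1.44-fold lower) and TAL1 (2.94-fold lower) were among those that fell. Lysosomal genes rose more often, 13 of 24 against 2 that fell (median 0.34), beside 11.2% and 16.0% of all genes. Without selumetinib replicate 1, 12 rose. Cathepsin D, CTSD, was at 167, 148 and 173 CPM in the combination and 82.5, 97.1 and 108 CPM in selumetinib (1.69-fold), and TFEB, the transcription factor of lysosomal genes, rose 1.71-fold and its relative MITF 3.84-fold.

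Genes of other cell types were scarce. The summed level of the erythroid markers was 20.91 to 25.39 CPM in the combination and 16.06 to 20.91 CPM in selumetinib, with 10 of 12 genes at 0 in all 6 libraries, and that of the T and NK cell markers at most 3.724 CPM. The megakaryocyte markers summed to 3.486 to 7.448 CPM in the combination and 4.757 to 6.642 CPM in selumetinib. The B cell markers summed to 24.78 to 32.8 CPM in the combination and 16.05 to 18.37 CPM in selumetinib, with 4 of 8 at 0. Of the B cell markers EBF1 rose (1.75-fold), and of the endothelial, epithelial and stromal markers PECAM1, which myeloid cells also express, rose from 11.3, 25 and 21 CPM in selumetinib to 80.6, 92 and 78.7 CPM in the combination. Some genes of stroma and epithelium were detected in selumetinib and hardly in the combination. The collagen COL3A1 was at 2.69, 0 and 0.738 CPM in selumetinib and at 0 in the combination, and with a floor of 3 counts over the 3 libraries it was at least 22.3-fold lower. SPARC, a matrix glycoprotein, was at 9.82, 0 and 2.17 CPM in selumetinib and 0.31, 0 and 0.0993 CPM in the combination. APP, the amyloid precursor protein, was at 4.59, 0.693 and 1.27 CPM in selumetinib and 0 in the combination, at least 42.6-fold lower with the same floor. In all of these genes replicate 1 was the highest selumetinib library. The calls of SPARC and COL3A1 rest on few counts, and both missed the test without selumetinib replicate 1 (edgeR adjusted p = 0.297 and 0.107; log2 fold change of SPARC -3.09) and without each combination replicate (edgeR adjusted p of up to 0.125 and 0.0515). SPARC also missed it with no filter on low counts and with the replicate number as a block (edgeR adjusted p = 0.0793 and 0.0637), and COL3A1 in DESeq2 (adjusted p = 0.43). The part of other cells in these genes was not tested.

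The effect of the menin inhibitor with and without selumetinib was then compared, from combination minus selumetinib on one side and VTP-50469 minus DMSO, both day 3, on the other, which share no library. The uncertain time of selumetinib enters only the first side. A difference of the 2 effects therefore cannot be told apart from a longer exposure to selumetinib either. Without selumetinib, 1064 genes were called higher (6.49% of those tested) and 724 lower (4.42%), and without VTP-50469 replicate 2 these were 562 and 402. Of the genes called higher with selumetinib 621 were also higher without it, which is 33.9% of the former and 58.4% of the latter, and 444 were lower in both, 16.9% and 61.3%. The difference of the 2 effects, tested in the same fit, was called in 437 genes in the higher direction (2.67%) and in 1028 in the lower direction (6.27%), together 8.94%. Without selumetinib replicate 1 these were 255 and 715, and without VTP-50469 replicate 2 they were 559 and 1207.

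The effects on replication and ribosome genes were lower with selumetinib than without it. Over all genes, 6.27% had a lower effect by the test of the difference. Of the 26 replication genes, 20 had a lower effect with selumetinib by that test (16 without selumetinib replicate 1 and 20 without VTP-50469 replicate 2), and on VTP-50469 alone 5 rose and 0 fell (0 and 0 without VTP-50469 replicate 2). MCM6 was at 336, 337 and 328 CPM in VTP-50469 and 386, 379.8 and 381 CPM in DMSO, a log2 fold change of -0.20 that did not pass the test, and the difference of effects was -1.13 ± 0.14 (SE, edgeR adjusted p = 5.29e-06). On VTP-50469 alone 5 of the 25 ribosome biogenesis genes fell and 0 rose (1 and 0 without VTP-50469 replicate 2). With selumetinib 19 of the 25 had a lower effect (17 without selumetinib replicate 1 and 22 without VTP-50469 replicate 2), among them MYC (difference -1.10 ± 0.15, SE, edgeR adjusted p = 2.35e-05). The same was found for 12 of 23 amino acid stress genes (8 and 16), PSAT1 with a difference of -1.84 ± 0.29 (SE), and for 8 of 12 MEK signature genes (7 and 8). DUSP6 was at 12.7, 23.3 and 13.7 CPM in VTP-50469 and 9.55, 9.92 and 7.63 CPM in DMSO, with every VTP-50469 library above every DMSO library, and its difference of effects was -2.60 ± 0.49 (SE, edgeR adjusted p = 0.00123).

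BCL2, BMF and TXNIP moved further with selumetinib than without it, BCL2 and BMF in the same direction in both settings. The VTP-50469 libraries overlapped those of DMSO in TXNIP. BCL2 was at 235, 155 and 242 CPM in VTP-50469 (log2 fold change from DMSO -0.80), and the difference of effects was -0.80 ± 0.19 (SE, edgeR adjusted p = 0.0113). BMF, at 21, 31.9 and 19.4 CPM in VTP-50469, differed by 1.10 ± 0.26 (SE, edgeR adjusted p = 0.0102) and TXNIP, at 1179, 939 and 1178 CPM in VTP-50469, by 1.18 ± 0.10 (SE, edgeR adjusted p = 2e-08). FLT3 fell on VTP-50469 alone, from 99.6, 101 and 105 CPM in DMSO to 63.9, 37.8 and 57.5 CPM, and under selumetinib its log2 fold change was 0.23, and the difference of effects was 1.17 ± 0.16 (SE, edgeR adjusted p = 2.79e-05). MKI67 differed by 0.49 ± 0.14 (SE, edgeR adjusted p = 0.0234; 0.0928 without DMSO replicate 2, and also above the threshold without combination replicate 2, selumetinib replicate 3 and VTP-50469 replicate 1 or 3), and 1 of the 24 mitosis genes had a called difference.

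The interferon-stimulated genes showed 1 called difference, OASL (-4.50 ± 1.12, SE, edgeR adjusted p = 0.0176; -2.66 without VTP-50469 replicate 2, and adjusted p = 0.0533 without DMSO replicate 1), although their median log2 fold change was 3.14 on VTP-50469 alone and 1.36 under selumetinib. The median of the difference was -1.25 with all libraries and 0.20 without VTP-50469 replicate 2, the library far above its partners, so its sign rests on that library. Without it the median on VTP-50469 alone was 1.73. Without that library 1 member was called higher and 1 lower, and leaving out single libraries in turn gave 0 to 3 called lower. Beyond these calls, a difference in the size of the interferon response was not detectable with these replicates.

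**Figure D4:**
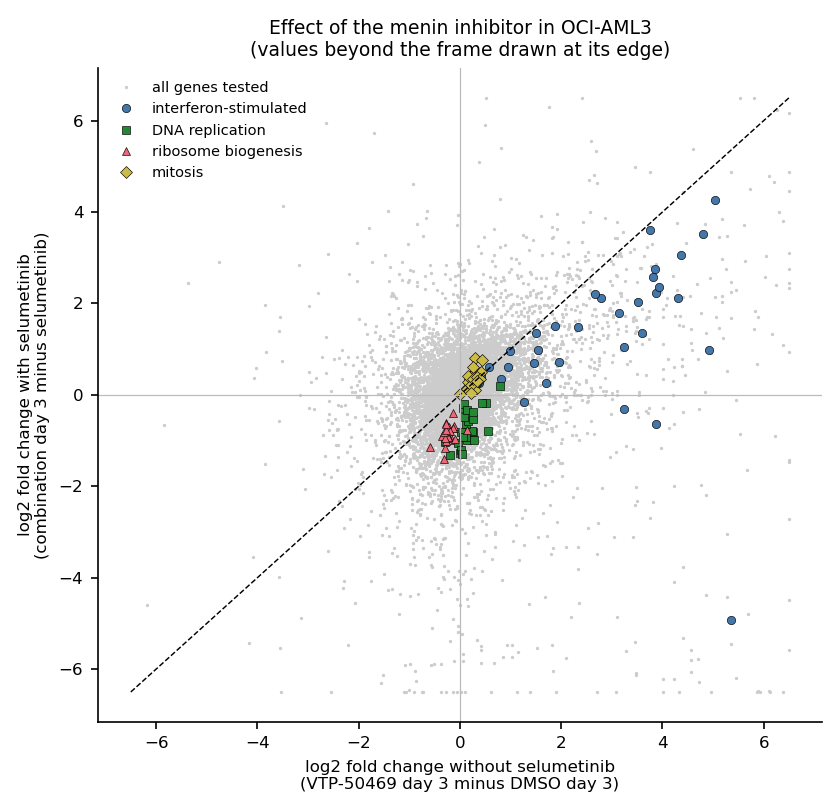
Log2 fold change of the menin inhibitor without selumetinib (x axis, VTP-50469 minus DMSO, day 3) and with it (y axis, combination day 3 minus selumetinib) for all genes tested (grey) and 4 gene lists (coloured), with the diagonal dashed. Replication and ribosome biogenesis genes lie below the diagonal, near 0 on the x axis, and most interferon-stimulated genes lie above 0 on both axes.

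In NOMO1 the same comparison called 1699 of 16561 genes higher (10.3%) and 1627 lower (9.82%). Of 14567 genes tested in both lines, 435 were higher in both, 25% of those higher in OCI-AML3 and 28.3% of those higher in NOMO1, and 765 were lower in both, 30.4% and 50.5%. The opposite directions held 104 genes higher in OCI-AML3 and lower in NOMO1 and 173 the other way. The difference between the lines, NOMO1 minus OCI-AML3, was called higher in 1304 of 18707 genes (6.97%) and lower in 923 (4.93%). Without NOMO1 selumetinib replicate 1, also titled day 1, these were 1093 and 725, and without OCI-AML3 selumetinib replicate 1 they were 1004 and 688. With library totals in place of scaling factors the median difference of all genes moved from 0.03 to -0.10, and 792 genes were called higher and 1539 lower.

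Several menin-KMT2A targets differed between the lines, in both directions. MEIS1 was at 2.41, 1.78 and 1.68 CPM in the NOMO1 combination and 38.3, 42.6 and 35.3 CPM in NOMO1 selumetinib, a log2 fold change of -4.31, against -0.40 in OCI-AML3 (line difference -3.91 ± 0.20, SE, edgeR adjusted p = 7.36e-18). MEF2C, a myeloid transcription factor, fell in NOMO1 (log2 fold change -2.98) and rose in OCI-AML3 (0.61), with a line difference of -3.59 ± 0.26 (SE, edgeR adjusted p = 2.06e-11). PBX3 (line difference -1.59 ± 0.20, SE), the demethylase-related JMJD1C (-1.53 ± 0.13, SE), HOXA9 (-0.93 ± 0.17, SE) and CDK6 (-0.79 ± 0.16, SE) also had a lower effect in NOMO1. Of the 17 targets outside the HOX clusters tested in NOMO1, 9 fell and 3 rose, against 9.82% and 10.3% of all genes there. Their line difference was called lower in 8 and higher in 4, BCL2 among the latter, against 4.93% and 6.97% of all genes. IGF2BP2 fell in both lines, and its line difference did not pass the test (0.27 ± 0.14, SE, edgeR adjusted p = 0.264).

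Other groups differed between the lines in either direction. The NOMO1 counts below stand beside 10.3% of all genes called higher and 9.82% lower there, and the line differences beside 6.97% and 4.93%. CCND1 rose in NOMO1 (7.33, 7.71 and 8.09 CPM in the combination and 2.83, 3.03 and 3.13 CPM in selumetinib, log2 fold change 1.37) and fell in OCI-AML3, with a line difference of 3.28 ± 0.28 (SE, edgeR adjusted p = 6.61e-11). Of the 26 replication genes 3 rose and 5 fell in NOMO1, and 14 had a called line difference. MCM6 was at 134, 147 and 139 CPM in the NOMO1 combination and 146, 146 and 160.1 CPM in NOMO1 selumetinib (line difference 1.22 ± 0.12, SE, edgeR adjusted p = 6.93e-10). Ribosome biogenesis genes fell in both, 20 of 25 in NOMO1, and MYC fell by 0.55 in NOMO1 against 1.41 in OCI-AML3 on the log2 scale (line difference 0.86 ± 0.13, SE, edgeR adjusted p = 2.22e-06). Of the 26 monocyte genes tested in NOMO1, 13 rose and none fell, LYZ with a line difference of 1.07 ± 0.15 (SE). Of 30 interferon-stimulated genes tested in NOMO1, 1 rose and 3 fell, whereas 20 of 33 rose in OCI-AML3 (11 without selumetinib replicate 1). PARP9 had a line difference of -2.22 ± 0.48 (SE, edgeR adjusted p = 0.00181). TLR4 and CDKN1A rose in both lines, with line differences of -0.03 ± 0.14 and 0.10 ± 0.21 (SE) that did not pass the test. TXNIP also rose in both, with a line difference of -0.34 ± 0.13 (SE, edgeR adjusted p = 0.0874; 0.00171 without NOMO1 selumetinib replicate 3). BCL2 fell in both, less in NOMO1 (log2 fold change -0.75, line difference 0.84 ± 0.17, SE).

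**Figure D5:**
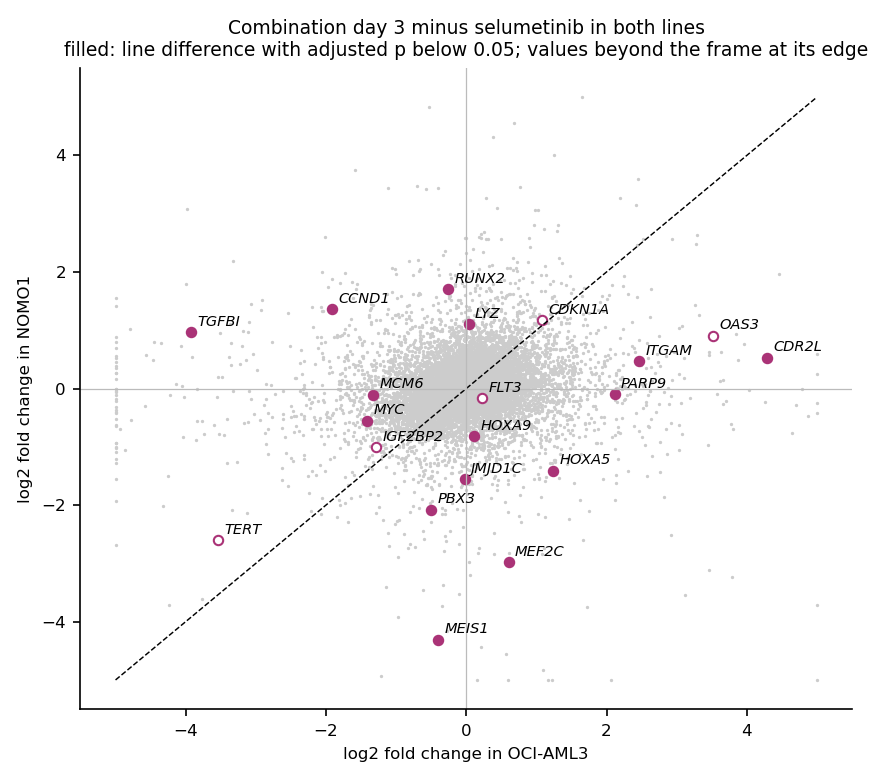
Log2 fold change of combination day 3 minus selumetinib in OCI-AML3 (x axis) and NOMO1 (y axis) for all genes tested in both (grey) and 20 named genes, with the diagonal dashed. Filled points had a called line difference. MEIS1, MEF2C, PBX3 and JMJD1C lie far below the diagonal, and TGFBI and CCND1 lie far above it.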

How the data were processed

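The deposited table holds whole-number raw counts per gene of polyadenylated RNA, extracted with RNeasy columns and read as paired-end libraries from a TruSeq kit, per the labels' protocols. The submitters' processing notes name FastQC 0.11.9, MultiQC 1.14, STAR 2.11a, featureCounts from Subread 2.0.6, DESeq2 1.44.0 and the build hg38, and the file's header names a GENCODE release. How reads with several placements were counted is not given in the sources used here. Of the table's columns 3 were not used, because they could not be tied to a sample and hold the same values as the selumetinib columns, and 1 gene without a value in every library was dropped. Drugs were given at 100 nM. The labels write the menin inhibitor as both VTP-50649 and VTP-50469.

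The counts of the 21 OCI-AML3 libraries were fitted together in edgeR 4.0.16 (R 4.3.3) with 1 mean for each of 7 groups, genes kept by filterByExpr, TMM scaling factors and the robust quasi-likelihood test. p-values were adjusted by Benjamini-Hochberg over all genes tested, and genes below 0.05 were called. The difference with and without selumetinib is a contrast of that fit, NOMO1 was fitted in the same way, and the line difference came from 1 fit of all 42 libraries. CPM are counts per 1000000 after TMM scaling, and a fold is 2 to the power of the fitted log2 fold change. Gene positions and the shown promoters are from GENCODE 29 and RefSeq on GRCh38, matched by symbol. The fit was first tested on simulated counts with known changes in genes of at least 1 CPM. Of 1.5-fold changes, 61.2% were found in the main comparison and 34.3% in the difference with and without selumetinib. Of 4-fold changes, 95.5% and 89.4% were found. Of the calls, 6.1% and 6.8% were false.

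The comparison and the gene lists were chosen with earlier results of these data known. Named genes are the 10 largest rises and falls by fold and the 6 by CPM, in each list the called members of lowest adjusted p (at most 4), the 5 largest differences each way, and 31 genes followed whatever their values, all with at least 5 CPM in 1 group where ranked by size. The other genes were named after their values were seen, and a few genes that the rule names are not reported here. Alternatives were DESeq2 1.42.0, other scalings and filters, the replicate number as a block, a fit of the 6 libraries alone, dropping of the mitochondrial genes and fits without each library in turn. Leaving out libraries of VTP-50469 minus DMSO was added after seeing the data.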

Additional observations from a re-analysis of the deposited data

Results flagged for a closer look

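The results below stood out because 2 fitted effects differed by a test of the difference itself. In every effect taken as combination minus selumetinib, the menin inhibitor cannot be told apart from a longer exposure to selumetinib. Each value is a fitted difference on the log2 scale with its SE. A difference in which a group had no or hardly any counts is not a measured size.

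The effect of the menin inhibitor was higher with selumetinib than without it in CDR2L (3.50 ± 0.53), KIF13A (2.95 ± 0.88), DSEL (2.73 ± 0.45), FLRT2 (2.45 ± 0.38) and S100A8 (2.40 ± 0.40), the 5 largest positive differences among genes above 5 CPM. CDR2L was at 14.9, 12.8 and 13.2 CPM in the combination against 0.898, 0.462 and 0.697 CPM in selumetinib, 1.6, 3.11 and 0.613 CPM in VTP-50469 and 0.971, 1.2 and 0.891 CPM in DMSO, so it was high in the combination libraries and low in all others. DSEL showed the same order, with 10.7, 15.2 and 11.7 CPM in the combination and at most 3.16 CPM in any library of the other 3 groups. KIF13A missed the test without 7 of the 12 libraries in turn, with an adjusted p of up to 0.099 (without selumetinib replicate 1).

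The effect was lower with selumetinib in SPARC (-10.48 ± 2.14), BBOX1 (-9.82 ± 1.30), MMP1 (-8.88 ± 1.08), SCN4A (-7.16 ± 1.65) and IL7R (-5.58 ± 1.53), the 5 largest negative differences. SCN4A, a sodium channel gene, had 1.9, 0.52 and 0.451 CPM in selumetinib, no count in the combination, 8.97, 5.82 and 8.53 CPM in VTP-50469 and 7.01, 8.22 and 7.8 CPM in DMSO, and with a floor of 3 counts over the group it was at least 18.6-fold lower in the combination than in selumetinib. MMP1, an interstitial collagenase, was at 5, 5.37 and 5.93 CPM in VTP-50469, 0.701, 0.299 and 0.668 CPM in DMSO, 3.48, 0.52 and 1.89 CPM in selumetinib and 0.103, 0 and 0 CPM in the combination. BBOX1 and IL7R were highest in VTP-50469 replicate 2, at 4.59, 29.7 and 4.55 CPM and 7.78, 86 and 6.79 CPM in the 3 VTP-50469 replicates, and without that library the difference for IL7R was -3.38. IL7R missed the test on leaving out any 1 of the other groups' libraries (adjusted p of up to 0.101).

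Among the genes followed or described above, the same test gave positive differences for FLT3 (1.17 ± 0.16), BMF (1.10 ± 0.26), TXNIP (1.18 ± 0.10) and MKI67 (0.49 ± 0.14). It gave negative differences for MYC (-1.10 ± 0.15), CCND1 (-1.76 ± 0.31), BCL2 (-0.80 ± 0.19), MCM6 (-1.13 ± 0.14), PSAT1 (-1.84 ± 0.29), DUSP6 (-2.60 ± 0.49), SPRY4 (-1.30 ± 0.24), ETV5 (-1.60 ± 0.31) and OASL (-4.50 ± 1.12).

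Between the lines, NOMO1 minus OCI-AML3, the 5 largest positive differences were APP (8.84 ± 1.78), SUSD3 (6.96 ± 1.15), LBH (6.94 ± 1.04), MEST (6.30 ± 1.06) and SNHG14 (6.20 ± 1.77), all with no count in the OCI-AML3 combination and at most 1.27 CPM in OCI-AML3 selumetinib replicates 2 and 3. SNHG14 missed the test without combination replicate 1 or 3 or selumetinib replicate 1 of OCI-AML3 (adjusted p = 0.0502, 0.0517 and 0.163). The 5 largest negative ones were PDE3A (-8.10 ± 0.85), AGXT (-7.96 ± 2.31), TMEM176A (-7.50 ± 1.23), GBP1 (-6.99 ± 2.31) and DYNC1I1 (-6.15 ± 0.57). PDE3A, a cyclic nucleotide phosphodiesterase, was at 21.3, 17.3 and 14.7 CPM in the OCI-AML3 combination and 3.96, 4.16 and 4.59 CPM in selumetinib, and at 0, 0 and 0.0391 CPM and 1.14, 1.21 and 1.25 CPM in the same NOMO1 groups, so it rose in one line and fell in the other. DYNC1I1, a dynein chain, was at 1.66, 2.75 and 2.38 CPM in the combination and 2.11, 2.31 and 1.68 CPM in selumetinib in OCI-AML3, and fell in NOMO1 from 10.4, 9.76 and 8.85 CPM to 0.259, 0.038 and 0.156 CPM. AGXT and GBP1 missed the test on leaving out single libraries (adjusted p of up to 0.239 and 0.445), and GBP1 with the replicate number as a block (0.052). Of the genes followed or described above, MEIS1 (-3.91 ± 0.20), MEF2C (-3.59 ± 0.26), PBX3 (-1.59 ± 0.20), JMJD1C (-1.53 ± 0.13), PARP9 (-2.22 ± 0.48), HOXA9 (-0.93 ± 0.17) and CDK6 (-0.79 ± 0.16) had negative line differences, and CCND1 (3.28 ± 0.28), MCM6 (1.22 ± 0.12), LYZ (1.07 ± 0.15), MYC (0.86 ± 0.13) and BCL2 (0.84 ± 0.17) positive ones.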

How the results depend on the processing

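Counts of called genes in the combination against selumetinib stayed within 1.5 times of 1833 higher and 2623 lower under every alternative run. With each of the 6 libraries left out, they ranged from 1230 to 1620 higher and from 2127 to 2520 lower (together 3357 to 4059). DESeq2 called 1988 higher and 2600 lower. For the difference with and without selumetinib, leaving out single libraries gave 255 to 559 higher, 715 to 1207 lower and 970 to 1766 in all, lowest in the higher direction without selumetinib replicate 1. For VTP-50469 minus DMSO it gave 562 to 1137 higher, 402 to 730 lower and 964 to 1867 in all. For the line difference it gave 1004 to 1243 higher and 688 to 961 lower. Library totals in place of scaling factors gave 792 higher and 1539 lower between the lines, and the cause was not tested.

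Same-numbered replicates of both groups deviated together with correlations of only 0.0361, 0.0281 and 0.0351, each highest with its own number, a hint from the data and not the design. With the replicate number as a block, 1772 genes were called higher and 2552 lower in the main comparison, 419 and 966 in the difference with and without selumetinib, and 1261 and 904 in the line difference. The block ended the calls of SPARC in the main comparison and of GBP1 between the lines, and no other call of a named gene. Of the genes named for the main comparison, 167 kept their call under all of its alternatives and 19 lost it under at least 1, and no called gene reversed. The number of genes with a count did not follow depth. It was 18197 to 20372 in the combination and 20756 to 21743 in selumetinib, and the library of fewest counts, selumetinib replicate 2 (17006206), had 20756. Genes such as DUSP6 rest on under 10 CPM in both groups.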

Other observations

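Chemokine and cytokine genes changed in both directions. Of 17 cytokine and chemokine genes tested, 3 rose and 5 fell, against 11.2% and 16.0% of all genes, with the same counts without selumetinib replicate 1. The neutrophil chemokine CXCL1 fell from 12.4, 9.36 and 8.41 CPM in selumetinib to 3.46, 2.06 and 3.92 CPM in the combination (3.17-fold lower, edgeR adjusted p = 3.43e-05), TNF fell 1.91-fold and CCL5 1.54-fold. The death ligand TNFSF10, TRAIL, was at 72.4, 75.8 and 73 CPM in the combination and 29.9, 42 and 36.2 CPM in selumetinib (2.05-fold), and the B cell survival factor TNFSF13B rose 1.62-fold.

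The genes of 3 further lists are given by their counts, beside 11.2% called higher and 16.0% lower over all genes. Of 20 genes of Polycomb complexes and DNA methylation, 4 rose and 4 fell, with the same counts without selumetinib replicate 1. PHF19, an accessory subunit of Polycomb repressive complex 2, was at 112, 125 and 108 CPM in the combination and 70.8, 66.6 and 74.7 CPM in selumetinib (1.63-fold), CBX8 rose 1.55-fold and JARID2 1.29-fold, whereas the methyltransferases EZH2 (1.32-fold lower) and DNMT1 (1.32-fold lower) fell. Of 16 genes of menin, KMT2A and their partners, 2 rose, among them AFF4 (1.31-fold), and MEN1 and WDR5 (1.32-fold lower) fell, and 1 rose without selumetinib replicate 1. Of 17 RAS pathway genes, 2 rose, among them SOS1, an activator of RAS (1.53-fold), and GRB2 (1.17-fold lower) fell. In that list 1 rose without any 1 of the 6 libraries, and GRB2 missed the test in the fit of the 6 libraries alone (edgeR adjusted p = 0.0572).

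Of 25 matrix and protease genes tested, 8 rose and 7 fell (5 and 4 without selumetinib replicate 1), against 11.2% and 16.0% of all genes. The protease inhibitor TIMP3 rose 2.09-fold and TIMP1 1.77-fold, the gelatinase MMP2 rose 1.82-fold, and TGFBI fell 15.2-fold.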
